A study of Saccharomyces cerevisiae with 5 samples.

Results

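Expression of the budding yeast Saccharomyces cerevisiae was compared between 1 parent strain and the mean of 4 INO80 mutants, and the genes described here are those that moved the same way in all 4. INO80 is a large chromatin remodelling complex that uses ATP to slide nucleosomes and is known for its place at gene starts, at replication forks and at broken DNA. Ino80 is the motor subunit, Arp5 and Ies6 form a module that couples the motor to nucleosome sliding, and Arp8 belongs to a separate module that holds actin and binds the DNA outside the nucleosome. The complex takes its name from inositol, since mutants fail to switch on genes of inositol synthesis such as INO1 when inositol is scarce.

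WT was strain BY4741 (MATa, with the his3, leu2, met15 and ura3 marker alleles). The labels give that background to the mutants too, with LEU2 in place of 1 subunit gene: ino80d (WYY0193), arp8d (WYY0196), arp5d (WYY0194) and ies6d (WYY0195). All strains grew unsynchronised to mid-log phase in rich liquid medium, and poly(A) RNA was sequenced on an Illumina HiSeq from a TruSeq v2 preparation, which keeps no record of the strand. The deposited table holds 1 FPKM value (fragments per kilobase, scaled to the mapped fragments) per feature and strain, which stands for 2 biological replicates, so no value has a replicate error, no difference could be tested and the depth is unknown. Whether each mutant is 1 clone is not said. The RNA went against the labelled background in 3 mutants: MET17 (also called MET15) was abundant in ino80d and arp8d, and LYS2, which BY4741 carries, was near 0 in ino80d and arp5d. These mutants therefore differed from WT in more than the subunit and LEU2, and within such a strain these differences cannot be told apart. The a-cell genes MFA1, MFA2 and STE2 were abundant in every strain, which matches the MATa label.

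Of 6567 features, 6150 were kept: they averaged 5 FPKM or more over the 5 strains and were above 0 in each. A further 375 lay under that mean and 42 reached it but were listed at 0 in a strain. Each mutant was set against WT as the log2 ratio of FPKM + 1, and the mean of the 4 ratios is given with their SD. That SD measures agreement between different mutants and is no replicate error. A feature counted as moved alike when it was at least 2-fold from WT, in 1 direction, in each of the 4 mutants. The same WT value enters all 4 ratios, so an unusual WT value would shift a gene alike in all 4, and agreement between the mutants is not independent support for a change.

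By this rule 224 features were higher than WT in all 4 mutants, 3.64% of those kept, and 92 were lower, 1.5%. On the mean alone, 354 features (5.76%) had a log2 ratio of at least 1 and 184 (2.99%) one of at most -1. At 1.5-fold, the limit used for gene lists below, 487 features (7.92%) were higher and 292 (4.75%) lower in all 4. The counts were held down most by arp8d, above all for the lower group: without this strain 290 features were higher and 140 lower. Annotated open reading frames (ORFs) of at least 300 bp, called genes from here on, made up 5409 of the kept features. Of them 170 (3.14%) were higher and 74 (1.37%) lower, whereas 3652 (67.5%) stayed within 1.5-fold of WT in every mutant. Over all kept features the median mean log2 ratio was -0.02, close to no change.

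**Figure D1:**
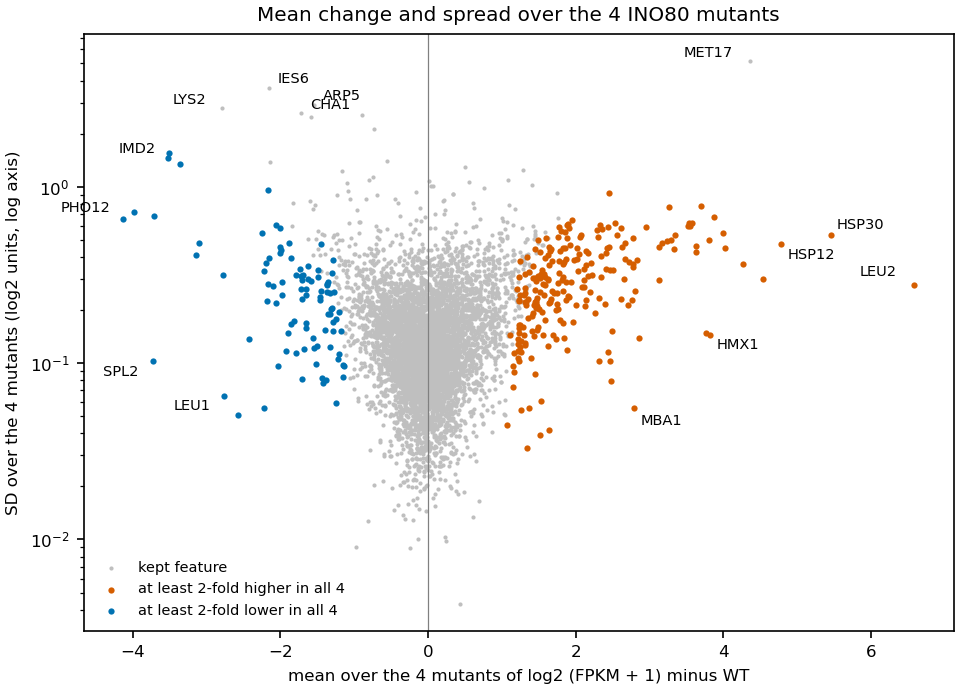
Mean over the 4 mutants of the log2 ratio to WT (x axis) against its SD over the mutants (y axis, log scale), 1 point per kept feature, with features at least 2-fold higher in all 4 in orange and those at least 2-fold lower in all 4 in blue. LEU2 and HSP30 lie farthest to the right, PHO12 farthest to the left among the blue points, and MBA1, SPL2 and LEU1 combine a large change with a small SD, whereas deleted genes and markers (IES6, ARP5, LYS2, MET17) stand at the top.

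The mutants differed in how far they moved the shared genes. The ies6d strain gave the highest ratio of the 4 for 105 of the 170 higher genes (61.8%), against 28.4% of all genes, and arp8d the lowest for 78 (45.9%, against 27% of all genes). Among the 74 lower genes, ino80d had the lowest ratio for 28 (37.8%, against 28.3% of all genes). The arp8d strain had the highest ratio for 39 (52.7%, against 26.8% of all genes), which in lower genes is the ratio closest to WT. The median SD over the mutants was 0.266 among higher genes, 0.215 among lower genes and 0.122 over all genes. The WT median was 12.3 FPKM among higher genes and 147 FPKM among lower genes, against 57.8 FPKM over all genes. WT is part of every ratio, so the rule itself favours low WT values among higher genes and high ones among lower genes. Of the higher genes 37 were at least 4-fold up in all 4 mutants, and of the lower genes 9 were at least 4-fold down.

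LEU2, an enzyme of leucine synthesis and the marker used for each deletion, had the highest mean of all. Its level was 0.0619 FPKM in WT against 91.3 (ino80d), 125 (arp8d), 113 (arp5d) and 81.3 (ies6d), and its mean log2 ratio, which rests on the added 1 FPKM, was 6.59 (SD 0.28). Every mutant thus carried a working LEU2 that WT lacked, and for any shared change the marker and the missing subunit cannot be told apart. MET17 and LYS2, genes of methionine and lysine synthesis, were not shared. MET17 was present in ino80d and arp8d alone, with 0.482 FPKM in WT against 807 (ino80d), 564 (arp8d), 0.200 (arp5d) and 0.571 (ies6d). LYS2 read 36.9 FPKM in WT against 0.0138 (ino80d), 32.3 (arp8d), 0.0390 (arp5d) and 25.0 (ies6d), near 0 in ino80d and arp5d. Their SDs over the mutants, 5.17 and 2.80, were among the 10 largest, as were those of the 4 deleted genes, of CHA1, YGL149W, IMD2 and COS1. HIS3, which the his3 allele of the parent leaves in part, had a mean log2 ratio of -0.061 (SD 0.18). URA3 is not analysed here.

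Genes of the general stress response formed the largest group among those that were higher. These genes, many of them under the transcription factors Msn2 and Msn4, are switched on in yeast by heat, starvation, acid and osmotic shock and are low in cells that divide fast. Of 34 listed effectors, 24 were at least 1.5-fold higher in all 4 mutants, 19 of them at least 2-fold, and none was 1.5-fold lower in all 4. The median mean log2 ratio of the list was 1.73, and it ran from 1.40 in ino80d and 1.45 in arp8d to 1.60 in arp5d and 2.24 in ies6d.

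HSP12, a small protein that shields the plasma membrane under stress, read 93.1 FPKM in WT against 2584 (ino80d), 3040.1 (arp8d), 1638 (arp5d) and 3477 (ies6d). All mutants stood far above WT, arp5d the least and ies6d the most, with a mean log2 ratio of 4.78 (SD 0.47). RTC3, a small protein of RNA metabolism, read 25.7 FPKM in WT against 219 (ino80d), 406 (arp8d), 384 (arp5d) and 686 (ies6d), which is a mean log2 ratio of 3.88 (SD 0.67). SPI1, a cell wall protein, read 46.4 FPKM in WT against 235 (ino80d), 499.996 (arp8d), 421 (arp5d) and 852 (ies6d). For both, ino80d was the lowest mutant and ies6d the highest, and the SD of SPI1 was 0.76. Smaller and tighter was the change of the hydrophilin GRE1, with a mean log2 ratio of 2.76 (SD 0.23). The mitochondrial outer membrane protein OM45, with a mean log2 ratio of 1.92 (SD 0.47), and the catalase CTT1, with a mean log2 ratio of 2.63 (SD 0.45), changed less than HSP12 but with about the same spread. Of the 34 genes 3 had means below 0: DDR48, with a mean log2 ratio of -0.74 (SD 0.41), RCK2, a kinase, with a mean log2 ratio of -0.24 (SD 0.032), and the aldehyde dehydrogenase ALD2, near-identical to ALD3, with a mean log2 ratio of -0.073 (SD 0.17). The regulator MSN4 was itself among the higher genes, 30.9 FPKM in WT against 114 (ino80d), 97.5 (arp8d), 94.2 (arp5d) and 128 (ies6d), whereas its partner MSN2 was at 48.1 FPKM in WT, with the mutants from 40.3 to 49.8.

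Membrane proteins at the cell surface held some of the largest changes, and HSP30 had the highest mean after LEU2. HSP30, which restrains the plasma membrane proton pump during stress, read 29.8 FPKM in WT against 1009 (ino80d), 989 (arp8d), 1582 (arp5d) and 2117 (ies6d). Its mean log2 ratio was 5.46 (SD 0.53), with ino80d and arp8d almost level and ies6d highest. YRO2, a related membrane protein, read 28.9 FPKM in WT against 710.4 (ino80d), 545 (arp8d), 669 (arp5d) and 905 (ies6d), with a mean log2 ratio of 4.54 (SD 0.30). TPO2, an exporter of polyamines, read 17.5 FPKM in WT against 359 (ino80d), 189 (arp8d), 365 (arp5d) and 330.3 (ies6d), lowest in arp8d. It has the near-identical copy TPO3 (a mean log2 ratio of 2.11 (SD 0.30)), and how reads of both were assigned is not known. The exporter TPO4 had a mean log2 ratio of 2.11 (SD 0.27), but TPO1 did not follow, with a mean log2 ratio of -0.21 (SD 0.55). Of this list of 13, 6 were at least 1.5-fold higher in all 4 and none lower. The proton pump PMA1 was at 2204 FPKM in WT, with the mutants from 2292 to 3037, within 1.5-fold, and its rare isoform PMA2 at 6.89 FPKM in WT, with the mutants from 13.0 to 17.1. Next to TPO3 on chromosome XVI lies TDA6, of unknown function, which read 9.23 FPKM in WT against 200.2 (ino80d), 137 (arp8d), 217 (arp5d) and 245 (ies6d). HSP30 is on chromosome III. The 147 genes there had a median mean log2 ratio of 0.15, slightly above that of all genes, and the part of this in the result was not tested.

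The start of the HSP12 gene is shown because it is rich in the stress element, the letters AGGGG that Msn2 and Msn4 bind. The sequence is 250 bases before the start codon, chrVI:107006-107255 on the plus strand of R64 (RefSeq), with the element in capitals, both times as its reverse complement, 232 and 190 bases before the start codon.
HSP12: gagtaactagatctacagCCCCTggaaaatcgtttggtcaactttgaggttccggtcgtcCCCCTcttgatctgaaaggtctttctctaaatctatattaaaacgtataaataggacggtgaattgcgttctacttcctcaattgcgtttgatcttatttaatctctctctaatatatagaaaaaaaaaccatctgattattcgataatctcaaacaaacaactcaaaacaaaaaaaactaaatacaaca
Over the 500 bases before the start codon HSP12 has 5 elements, on either strand, whereas YRO2 has 0. Of all 5409 genes, 34% had at least 1 in that window, against 61.2% of the higher genes and 25.7% of the lower ones. At least 2 were present in 7.93% of all genes, 34.7% of the higher and 2.7% of the lower ones. The share of genes that were 2-fold higher in all 4 was 1.85% of 3570 genes with none, 3.19% of 1410 with 1, 9.88% of 334 with 2, and 27.4% of 95 with 3 or more. These are counts of letters, not of bound sites, and the windows can reach into a neighbouring gene.

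**Figure D2:**
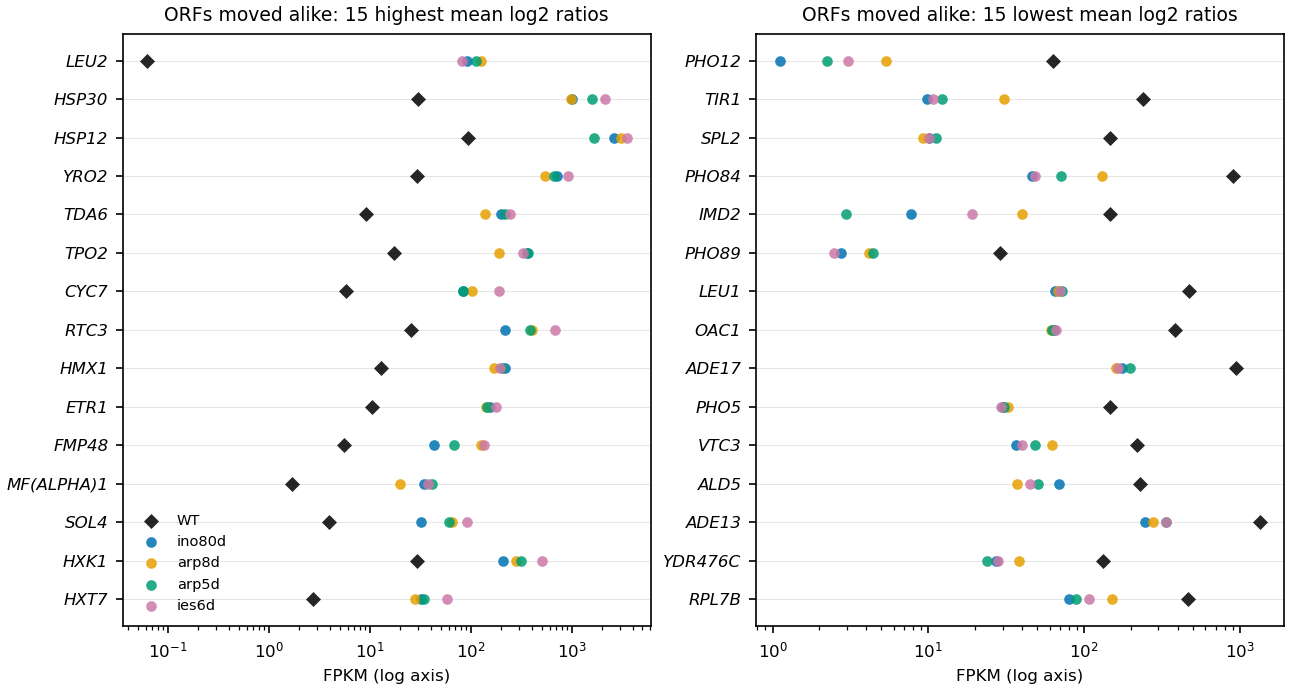
FPKM (log axis) in WT (black diamonds) and in each mutant (coloured circles) for the 15 genes with the highest and the 15 with the lowest mean log2 ratio among the reported genes moved alike; each symbol is the 1 value of a strain. For every gene all 4 mutants lie on 1 side of WT, closely packed for HMX1, ETR1, LEU1, OAC1 and PHO5, and widely spread for FMP48, IMD2 and PHO12.

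Storage of glucose as trehalose and glycogen went with the stress genes. Of 19 listed genes 10 were at least 1.5-fold higher in all 4 mutants, with a list median of 0.87. GPH1, the phosphorylase that releases glucose from glycogen, read 4.997 FPKM in WT against 34.2 (ino80d), 34.7 (arp8d), 43.1 (arp5d) and 83.0 (ies6d). GSY2, the main glycogen synthase, read 22.5 FPKM in WT against 91.7 (ino80d), 109 (arp8d), 129.8 (arp5d) and 190.5 (ies6d). TSL1, a subunit of trehalose synthase, read 9.56 FPKM in WT against 37.9 (ino80d), 59.6 (arp8d), 65.3 (arp5d) and 93.8 (ies6d). Genes of synthesis and of breakdown were therefore both higher, each with its top value in ies6d and its lowest in ino80d. The paralogues of phosphoglucomutase moved apart: PGM2 had a mean log2 ratio of 1.85 (SD 0.56) and PGM1 a mean log2 ratio of -0.96 (SD 0.21). Upstream of the 19 genes, 84.2% had a stress element and 73.7% at least 2. The hexokinase paralogues moved apart as well: HXK1 read 29.5 FPKM in WT against 206 (ino80d), 281 (arp8d), 309.7 (arp5d) and 503 (ies6d), whereas HXK2, the main form in glucose, had a mean log2 ratio of -1.03 (SD 0.21). Also higher was the glucokinase GLK1, which overlaps YCL042W, with a mean log2 ratio of 1.78 (SD 0.59). The high-affinity transporter HXT7, near-identical to HXT6, read 2.71 FPKM in WT against 32.1 (ino80d), 27.9 (arp8d), 34.3 (arp5d) and 57.6 (ies6d). HXT7 and GPH1, under 5 FPKM in WT, passed the filter only through the mutants and could be moved alike only upward. Over the 20 genes of glycolysis the median was -0.42, with 3 higher and 2 lower by 1.5-fold in all 4.

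Nuclear genes for the respiratory chain were higher as a set but less so. Of 27 listed genes, all had a mean above 0 and 12 were at least 1.5-fold higher in all 4, with a median of 0.88. CYC7, the second form of the electron carrier cytochrome c, read 5.85 FPKM in WT against 84.0 (ino80d), 103 (arp8d), 83.9 (arp5d) and 189 (ies6d), with a mean log2 ratio of 3.99 (SD 0.55), whereas the main form CYC1 had a mean log2 ratio of 0.52 (SD 0.36). NDE1, an NADH dehydrogenase facing the cytosol, read 150.5 FPKM in WT against 334 (ino80d), 465 (arp8d), 423 (arp5d) and 458 (ies6d). The listed subunits of the membrane complexes were raised less than NDE1, for example the complex III subunit QCR9 at a mean log2 ratio of 1.11 (SD 0.31) and the succinate dehydrogenase subunit SDH2 at a mean log2 ratio of 1.04 (SD 0.27). COX26, a short complex IV subunit gene outside the list and chosen after its values were seen, was higher, at 76.9 FPKM in WT against 437 (ino80d), 383 (arp8d), 439 (arp5d) and 808 (ies6d). Of 16 ATP synthase genes 3 were 1.5-fold higher in all 4, with a median of 0.55; the highest was the inhibitor INH1, with a mean log2 ratio of 1.76 (SD 0.66). HAP4, the activating subunit of the factor that drives these genes, read 41.1 FPKM in WT against 169.8 (ino80d), 276 (arp8d), 221 (arp5d) and 280.4 (ies6d), clearly above WT in every mutant. The CCAAT letters that this factor binds were upstream of 81% of the listed respiratory genes of at least 300 bp, against 62.7% of all genes. They were before 57.6% of the higher genes, less than of all genes, and before 63.5% of the lower ones. Mitochondrial ribosomal protein genes stayed near WT, with a median of 0.08 over 72.

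Other higher genes outside the chain, only some of them of mitochondria, included several that agreed very closely. MBA1, which docks ribosomes at the inner membrane, read 11.6 FPKM in WT against 85.8 (ino80d), 82.4 (arp8d), 87.5 (arp5d) and 90.5 (ies6d), so the mutants were nearly level with each other and all well above WT (a mean log2 ratio of 2.80 (SD 0.055)). ETR1, an enzyme of mitochondrial fatty acid synthesis, had a mean log2 ratio of 3.76 (SD 0.15). FAD1, which makes the cofactor FAD, had a mean log2 ratio of 2.44 (SD 0.11), and CIT1, citrate synthase of the TCA cycle, a mean log2 ratio of 1.44 (SD 0.087). SUE1, needed to break down unstable cytochrome c, had the smallest SD of all higher genes, a mean log2 ratio of 1.35 (SD 0.033), at 2.32 FPKM in WT, with the mutants from 7.24 to 7.70. At under 5 FPKM in WT, SUE1 could be moved alike only upward. The other genes with the smallest SD were MTL1 and YPK2, a sensor and a kinase of cell wall integrity, the vesicle protein genes SNN1 and EMP46, and YGL185C, ECM34 and MGP12. HMX1, the heme oxygenase that frees iron from heme, read 12.8 FPKM in WT against 216 (ino80d), 170.3 (arp8d), 203 (arp5d) and 193 (ies6d), close together in all mutants (a mean log2 ratio of 3.82 (SD 0.14)). At the other end FMP48, a putative kinase, read 5.54 FPKM in WT against 43.2 (ino80d), 126 (arp8d), 67.7 (arp5d) and 136 (ies6d), high in arp8d and ies6d and lowest in ino80d.

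Genes that a growing haploid a cell keeps nearly silent were also among the higher ones, at low levels. Any gene under 5 FPKM in WT passes the mean of 5 FPKM only through the mutants. It can then be moved alike only upward, so its direction was set by the rule. This holds for MF(ALPHA)1 and REC8 here and for HXT7, GPH1 and SUE1 above. Of the 170 higher genes 8 were even under 1 FPKM in WT, among them SPO19 and PDC6 below. A gene that low also cannot be 2-fold lower on FPKM + 1. MF(ALPHA)1, which encodes the mating pheromone of alpha cells, read 1.69 FPKM in WT against 34.5 (ino80d), 19.8 (arp8d), 41.5 (arp5d) and 37.8 (ies6d). All 4 alpha-cell genes had means above 0 and 2 of them, MF(ALPHA)1 and the receptor gene STE3, were 1.5-fold higher in all 4. Their summed level was 67.3 FPKM in WT and ran from 103 to 158 in the mutants. The 7 a-cell genes summed to 307124 FPKM in WT and ran from 259598 to 767076 in the mutants, and none was 1.5-fold from WT in 1 direction in all 4; the part of cells of another mating type in the result was not tested. Of 26 listed genes of meiosis and sporulation 23 were kept, of which 7 were 1.5-fold higher in all 4 and none lower, with a median of 0.34. For members low in WT the filter favoured the higher direction, so the lack of lower ones says little. That median rests on low genes: it turned to -0.21 when only genes averaging at least 20 FPKM were kept. SPO19, a late sporulation protein, read 0.453 FPKM in WT against 11.4 (ino80d), 7.42 (arp8d), 3.99 (arp5d) and 4.46 (ies6d). REC8, the meiotic cohesin, read 1.28 FPKM in WT against 6.52 (ino80d), 6.12 (arp8d), 7.68 (arp5d) and 6.09 (ies6d), and SPO11, which cuts DNA to start meiotic recombination, 6.93 FPKM in WT against 19.8 (ino80d), 14.9 (arp8d), 21.9 (arp5d) and 19.1 (ies6d). The master regulator IME1 did not follow, with a mean log2 ratio of -0.36 (SD 0.13), nor did NDT80, with a mean log2 ratio of -0.18 (SD 0.15). PDC6, a minor pyruvate decarboxylase that lies beside CTT1, read 0.719 FPKM in WT against 15.6 (ino80d), 11.7 (arp8d), 8.01 (arp5d) and 5.53 (ies6d), highest in ino80d and lowest in ies6d, against the usual order of the stress genes.

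Among genes that were lower, those of the phosphate (PHO) regulon changed most. Yeast turns these genes on through the factor Pho4 when phosphate runs short, to take up phosphate, free it from organic compounds and store it as polyphosphate. Among the 16 kept PHO genes, 11 were lower by 1.5-fold or more in every mutant, 9 of them by 2-fold or more, while 1 gene was higher, with a median mean log2 ratio of -1.65. SPL2, which regulates the low-affinity transporters, read 147 FPKM in WT against 10.1 (ino80d), 9.23 (arp8d), 11.2 (arp5d) and 10.1 (ies6d), so the mutants agreed closely (a mean log2 ratio of -3.73 (SD 0.10)). PHO84, the high-affinity transporter, read 897 FPKM in WT against 46.4 (ino80d), 130.2 (arp8d), 70.9 (arp5d) and 48.3 (ies6d), least reduced in arp8d (a mean log2 ratio of -3.71 (SD 0.68)). PHO12, an acid phosphatase near-identical to PHO11, read 62.7 FPKM in WT against 1.12 (ino80d), 5.34 (arp8d), 2.23 (arp5d) and 3.04 (ies6d), and PHO5, the main secreted phosphatase, 147 FPKM in WT against 30.2 (ino80d), 32.3 (arp8d), 30.8 (arp5d) and 29.4 (ies6d). These phosphatases differ in spread, with an SD of 0.66 for PHO12 and 0.056 for PHO5. The polyphosphate synthase genes VTC1, VTC3 and VTC4 had means of -1.66, -2.23 and -1.65, and VTC2 -0.72. The regulator PHO81, an inhibitor of the kinase that keeps Pho4 inactive, had the smallest SD of the list, at 27.5 FPKM in WT, with the mutants from 15.1 to 15.4 (a mean log2 ratio of -0.81 (SD 0.013)), and PHO4 itself was at 92.9 FPKM in WT, with the mutants from 43.5 to 57.1. PHM8, a phosphatase that acts on nucleotides, was the member that was higher (a mean log2 ratio of 1.97 (SD 0.17)).

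The region before SPL2 is shown because it holds the Pho4 core CACGTG several times. It is chrVIII:375101-375350, minus strand, R64 (RefSeq), 250 bases ending at the start codon, with the core in capitals at 147, 90 and 31 bases before it.
SPL2: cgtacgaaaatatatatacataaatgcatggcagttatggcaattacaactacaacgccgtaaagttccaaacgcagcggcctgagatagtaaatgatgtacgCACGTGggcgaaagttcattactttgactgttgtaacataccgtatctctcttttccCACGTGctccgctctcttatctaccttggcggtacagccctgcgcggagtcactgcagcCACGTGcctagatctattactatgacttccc
In the 500 bases before the start codon SPL2 has 4 such cores and PHO84 has 2. Of the 16 kept PHO genes 13 (81.2%) held at least 1, against 6.32% of all genes, 14.9% of the lower and 5.29% of the higher ones.

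Genes of leucine, isoleucine and valine synthesis were lower in strains that all regained LEU2. Of 12 listed genes 8 were at least 1.5-fold lower in all 4 mutants and none was higher, with a median of -1.43. LEU1, which acts just before Leu2 in the pathway, read 472 FPKM in WT against 64.8 (ino80d), 67.8 (arp8d), 72.01 (arp5d) and 70.3 (ies6d). OAC1, a mitochondrial carrier of oxaloacetate and of the leucine precursor isopropylmalate, read 385 FPKM in WT against 64.5 (ino80d), 61.4 (arp8d), 62.0 (arp5d) and 66.3 (ies6d). BAT1, the mitochondrial aminotransferase that completes these amino acids, read 1254 FPKM in WT against 287 (ino80d), 307 (arp8d), 335 (arp5d) and 299 (ies6d). For each of them the 4 mutants gave almost the same level, with SDs of 0.065, 0.051 and 0.096, under the median of 0.122 over all genes. ILV3 and ILV5 ran lowest in arp8d, with 798 FPKM in WT against 297 (ino80d), 195 (arp8d), 281 (arp5d) and 299 (ies6d) for ILV3. The isozymes of the first step of the leucine branch differed: LEU9 read 175 FPKM in WT against 43.1 (ino80d), 76.9 (arp8d), 49.8 (arp5d) and 60.0 (ies6d), at least 2-fold lower in every mutant, whereas LEU4 (a mean log2 ratio of -0.29 (SD 0.15)) and the regulator gene LEU3 (a mean log2 ratio of 0.23 (SD 0.085)) stayed within 1.5-fold in every mutant. For these genes in particular, the LEU2 marker and the missing subunit cannot be told apart.

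The regions before LEU1 and BAT1 are shown for the Leu3 core, written here as CCG and CGG with 4 bases between, capitals covering all 10 bases. LEU1 is chrVII:478653-478902, minus strand, with cores 217 and 187 bases before the start codon, and BAT1 is chrVIII:517282-517531, plus strand, with 1 core 147 bases before it (R64, RefSeq).
LEU1: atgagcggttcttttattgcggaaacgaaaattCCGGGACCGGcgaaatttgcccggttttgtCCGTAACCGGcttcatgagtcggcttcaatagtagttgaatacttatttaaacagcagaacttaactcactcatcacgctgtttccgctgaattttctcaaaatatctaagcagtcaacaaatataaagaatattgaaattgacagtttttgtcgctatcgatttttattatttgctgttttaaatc
BAT1: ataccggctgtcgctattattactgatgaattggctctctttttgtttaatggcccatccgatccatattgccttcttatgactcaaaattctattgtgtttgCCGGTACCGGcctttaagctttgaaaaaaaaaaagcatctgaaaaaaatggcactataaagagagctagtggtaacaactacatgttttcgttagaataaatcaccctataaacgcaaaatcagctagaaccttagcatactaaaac
Of the 12 genes 8 (66.7%) held this core within 500 bases, against 3.18% of all genes. It was present before 12.2% of the lower and 7.06% of the higher genes.

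Genes of purine synthesis were lower too. Of 18 listed genes 12 were at least 1.5-fold lower in all 4 mutants and none higher, with a median of -0.99. ADE17, which carries out the last steps to inosine monophosphate, read 939 FPKM in WT against 176 (ino80d), 159.6 (arp8d), 198 (arp5d) and 164 (ies6d). Its isozyme ADE16 stayed near WT, at 256 FPKM in WT, with the mutants from 204 to 218. ADE13, adenylosuccinate lyase, read 1342 FPKM in WT against 244 (ino80d), 277 (arp8d), 336 (arp5d) and 336 (ies6d), and SHM2, which makes one-carbon units from serine, 1292 FPKM in WT against 469 (ino80d), 568 (arp8d), 533 (arp5d) and 491 (ies6d). The 5 PRS genes, whose product PRPP also serves other pathways, split: PRS2 had a mean log2 ratio of -0.90 (SD 0.13), while the means of PRS1, PRS3, PRS4 and PRS5 ran from -0.18 to 0.0095. IMD2, which turns inosine monophosphate toward GTP, read 148 FPKM in WT against 7.77 (ino80d), 39.9 (arp8d), 2.94 (arp5d) and 19.0 (ies6d). It was lower throughout but differed widely between the mutants, lowest in arp5d and highest in arp8d (a mean log2 ratio of -3.52 (SD 1.46)). Of the 5 listed genes of glycine cleavage, GCV1 was lower (a mean log2 ratio of -1.31 (SD 0.20)) and GCV3 higher (a mean log2 ratio of 2.71 (SD 0.21)), while GCV2 and SHM1, the mitochondrial counterpart of SHM2, had means of -0.21 and -0.034. GCV3 lies on chromosome I, whose 81 genes had a median of 0.25, and the part of this in the result was not tested.

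The region before ADE17 carries the core TGACTC read by Bas1 and Gcn4, factors that switch on purine and amino acid genes. It is chrXIII:509281-509530, minus strand, R64 (RefSeq), with the core in capitals 177 bases before the start codon.
ADE17: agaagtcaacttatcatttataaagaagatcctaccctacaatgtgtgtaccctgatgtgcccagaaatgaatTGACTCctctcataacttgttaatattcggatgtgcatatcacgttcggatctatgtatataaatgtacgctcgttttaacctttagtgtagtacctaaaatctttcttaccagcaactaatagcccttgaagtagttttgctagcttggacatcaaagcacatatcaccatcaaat
Over 500 bases ADE17 has 2 such cores. Of the 18 purine genes 12 (66.7%) held it, 8 of them at least 2 times, and of the 12 leucine, isoleucine and valine genes 9 (75%). The shares were 13.1% of all genes, 35.1% of the lower and 10% of the higher genes. GCN4, whose product is controlled mainly by translation, was at 1890.5 FPKM in WT, with the mutants from 1736 to 1994, and HIS4, a classic Gcn4 target, read 213 FPKM in WT against 72.5 (ino80d), 76.8 (arp8d), 79.7 (arp5d) and 83.0 (ies6d).

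**Figure D3:**
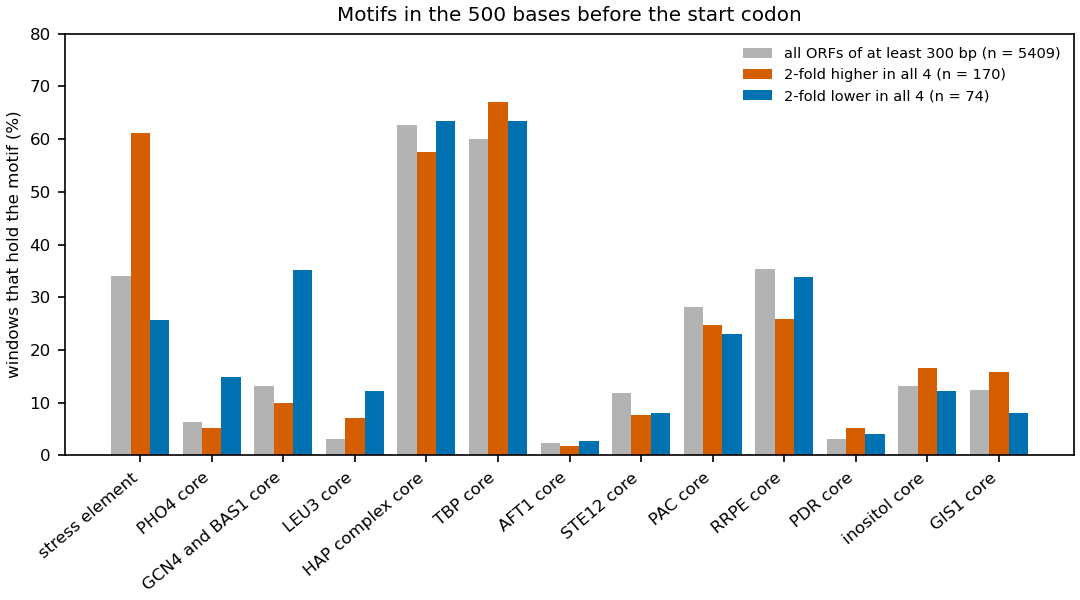
Share of genes (y axis, %) whose 500 bases before the start codon hold each of 13 motifs on either strand, for all genes (grey), genes at least 2-fold higher in all 4 mutants (orange) and at least 2-fold lower in all 4 (blue). The stress element is at 61.2% among higher genes against 34% of all, and the Gcn4 and Bas1 core at 35.1% among lower genes against 13.1% of all.

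Other motifs searched differed less in their shares. TATAAA, the core bound by the TATA-binding protein TBP, was before 60.1% of all, 67.1% of higher and 63.5% of lower genes. The GIS1 core TTAGGG, which can share bases with the stress element, was before 12.5%, 15.9% and 8.11%. The ribosome biogenesis motifs GATGAG and AAATTTT were before 28.1% and 35.3% of all genes, 24.7% and 25.9% of the higher and 23% and 33.8% of the lower. The inositol core CATGTG was before 13.2%, 16.5% and 12.2%. INO1 itself, in rich medium, stayed low, with 6.61 FPKM in WT against 8.68 (ino80d), 6.88 (arp8d), 8.54 (arp5d) and 7.80 (ies6d).

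Cytosolic ribosomal protein genes were all lower on the mean of the 4 mutants, but mostly by little. All 136 had means below 0, with a median of -0.52. The list median ran from -0.73 in ino80d to -0.31 in ies6d. Not every gene was lower in each mutant: RPS25A had a mean log2 ratio of -0.12 (SD 0.24). Of them 23 were at least 1.5-fold and 5 at least 2-fold lower in all 4. Most yeast ribosomal proteins come from a pair of duplicate genes. For the summed FPKM of each of 55 pairs, the mean log2 ratio over the mutants was below 0. Its median was -0.53 and its range -1.22 to -0.22. In 29 pairs the copies differed by under 0.25, and in 41 the same copy was the lower one in all 4 mutants. In 2 pairs they were at least 1 apart on the log2 scale. RPL7B read 465 FPKM in WT against 80.3 (ino80d), 150.1 (arp8d), 89.0 (arp5d) and 108 (ies6d), while RPL7A had a mean log2 ratio of -0.60 (SD 0.17), and RPS28B had a mean log2 ratio of -1.27 (SD 0.29) beside RPS28A with a mean log2 ratio of -0.25 (SD 0.32). The copies were near-identical over the whole gene, introns included, in 24 of the pairs. Pairs alike only in the coding sequence can be missed by this search, and RPL7 is not among the 24. How shared reads were divided is not known. RPL7B holds the small nucleolar RNA snR59, so its value is uncertain too. Genes of ribosome assembly were near WT, with a median of -0.14 over 64 and none 1.5-fold away in all 4, and translation factors and tRNA synthetases had a median of -0.38 over 44.

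**Figure D4:**
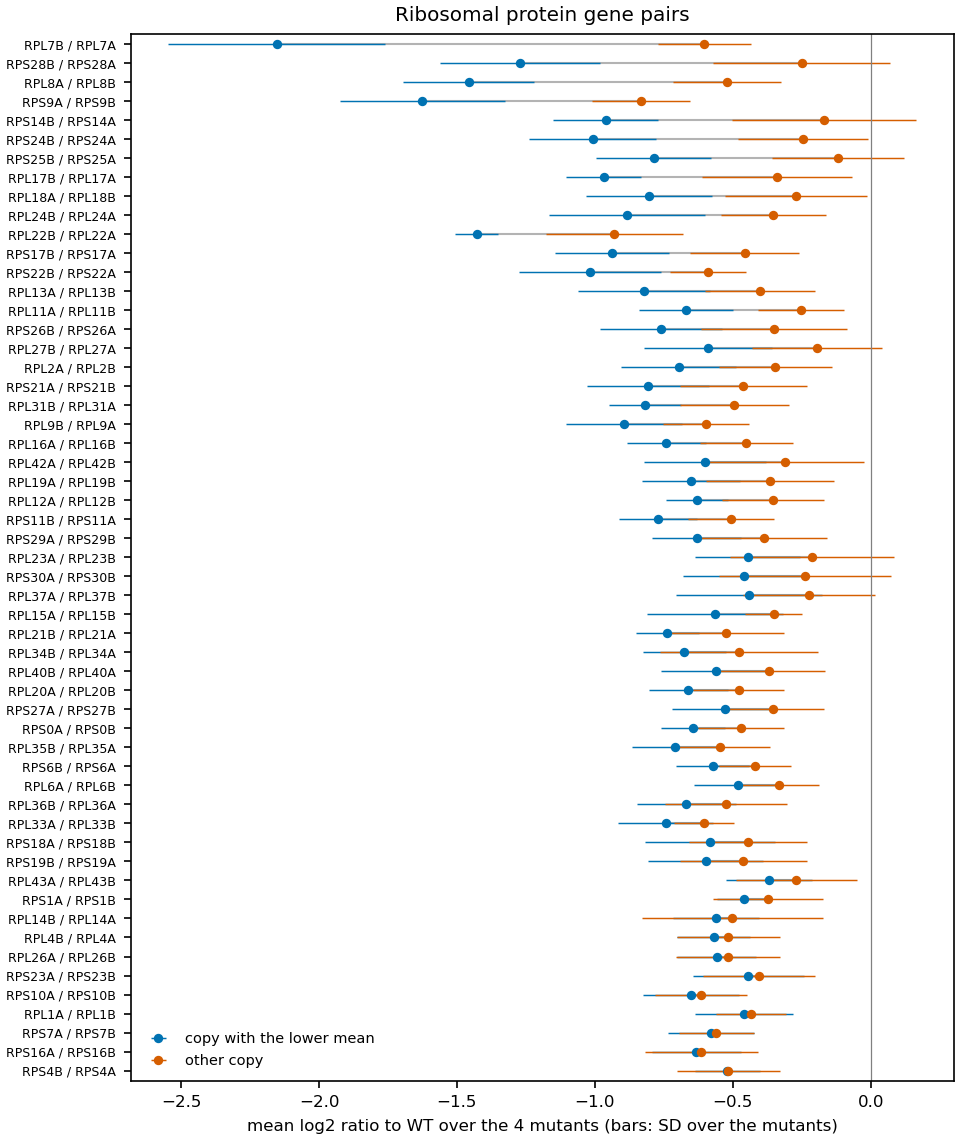
Mean log2 ratio to WT over the 4 mutants for both copies of 55 ribosomal protein pairs (x axis), with bars for the SD over the mutants; blue is the copy with the lower mean, orange the other, and pairs are ordered by the distance between them. RPL7B and RPS28B at the top stand at least 1 below their partners, whereas in 29 pairs the copies lie within 0.25.

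Smaller groups of lower genes came from growth and the cell surface. Of 23 kept DNA damage genes 5 were 1.5-fold lower in all 4, among them RNR4 (834 FPKM in WT against 279.7 (ino80d), 304 (arp8d), 354 (arp5d) and 372 (ies6d)) and RNR2 (a mean log2 ratio of -0.71 (SD 0.12)), the small subunits of the enzyme that makes deoxyribonucleotides. Its short inhibitor gene HUG1 read 983 FPKM in WT against 76.2 (ino80d), 164 (arp8d), 134 (arp5d) and 99.9 (ies6d). Of 23 cyclin genes and inhibitors 4 were lower and none higher: the G1 cyclin CLN1 read 117 FPKM in WT against 35.8 (ino80d), 42.1 (arp8d), 43.9 (arp5d) and 41.3 (ies6d), and the B-type cyclins CLB1 and CLB6, neighbours on chromosome VII, had a mean log2 ratio of -1.30 (SD 0.20) and a mean log2 ratio of -1.33 (SD 0.25). SIC1, the inhibitor of B-type cyclin kinase, had a mean log2 ratio of 0.54 (SD 0.061). TIR1, a mannoprotein of the cell wall known from cold and low oxygen, read 239.5 FPKM in WT against 9.78 (ino80d), 30.5 (arp8d), 12.2 (arp5d) and 10.8 (ies6d), with a mean log2 ratio of -3.99 (SD 0.71). Of the 24 kept mannoproteins of its list 4 were 1.5-fold lower and 3 higher in all 4. ALD5, a mitochondrial aldehyde dehydrogenase, read 229 FPKM in WT against 69.3 (ino80d), 37.2 (arp8d), 50.8 (arp5d) and 44.8 (ies6d), and lies next to VTC1. The list of 32 proteasome genes had a median of 0.00 and none moved 1.5-fold in all 4. Among the subunits of INO80 itself, NHP10 and IES2 were 1.5-fold higher in all 4, at 113 FPKM in WT, with the mutants from 179 to 203 for NHP10 and 85.4 FPKM in WT, with the mutants from 137 to 147 for IES2, and the other subunits not deleted were not.

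**Figure D5:**
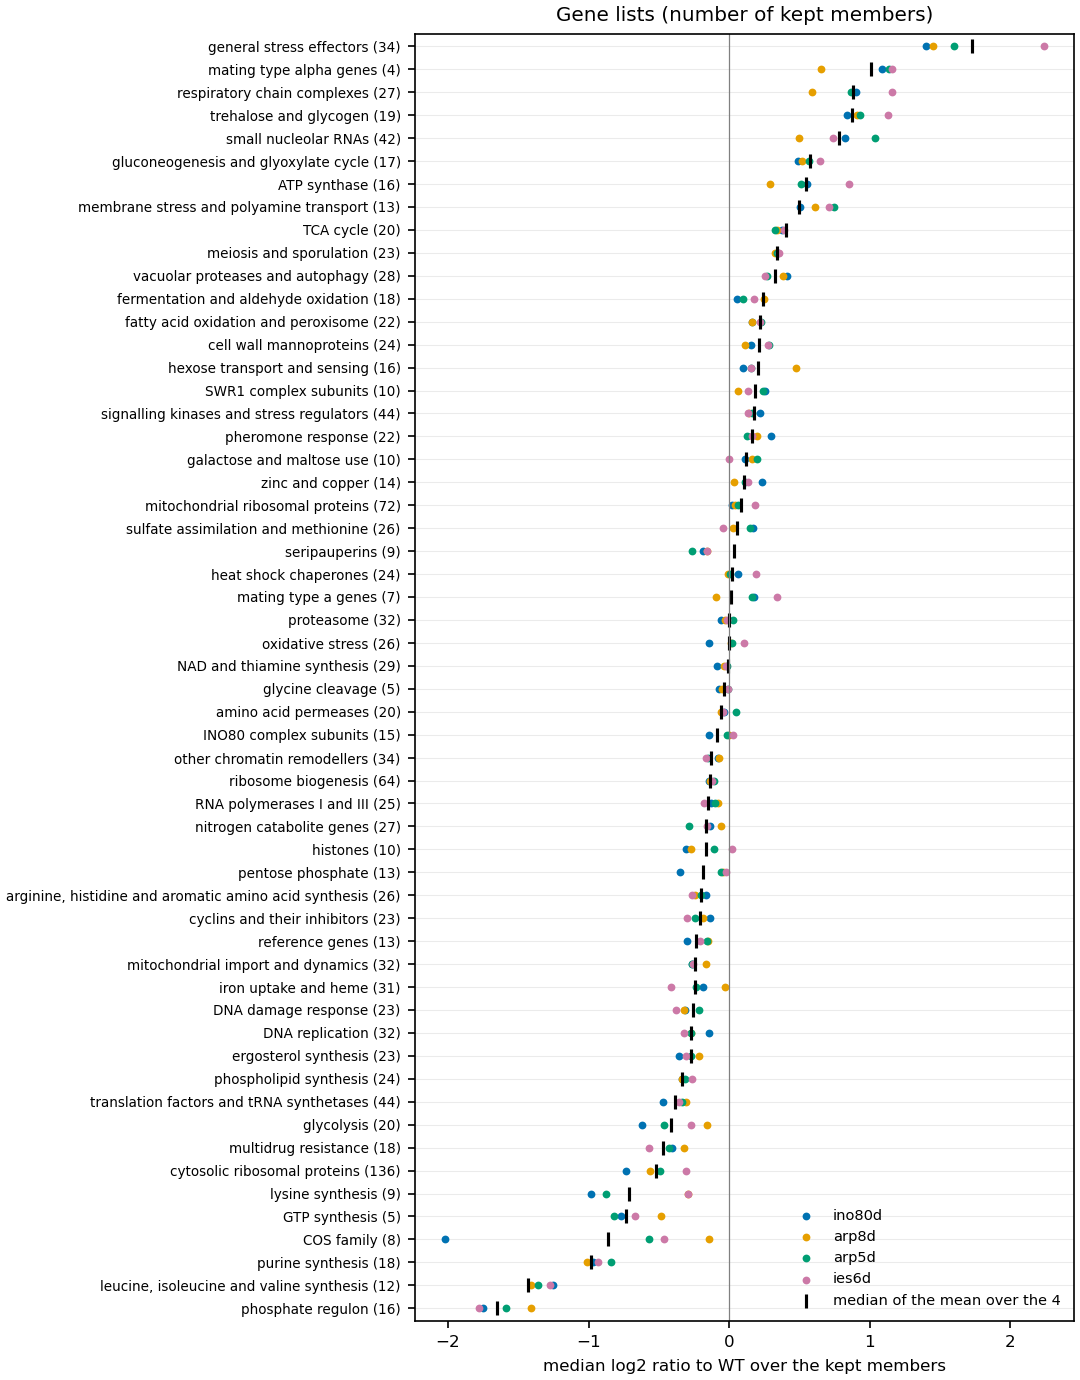
Median log2 ratio to WT over the kept members of each gene list (x axis; number of members in brackets) in each mutant (coloured points), with a bar for the median of the members' mean over the 4 mutants. General stress effectors stand highest at 1.73 and the phosphate regulon lowest at -1.65; in the COS family, ino80d alone reaches -2.02.

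Agreement was not a property of every list. The COS family, subtelomeric membrane protein genes that share much sequence, had a median of -0.86, but the list median was -2.02 in ino80d and -0.14 in arp8d, and only COS9 was 1.5-fold lower in all 4; without ino80d the median was -0.44. Lysine synthesis had a median of -0.71, with -0.98 in ino80d and -0.88 in arp5d, the strains without LYS2 RNA, and -0.29 in both arp8d and ies6d. Glycolysis ran from -0.62 in ino80d to -0.16 in arp8d.

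Position and length marked some of the shared genes. Of 132 genes within 20 kb of a chromosome end 10 (7.58%) were higher and 7 (5.3%) lower in all 4, against 3.03% and 1.27% of the 5277 other genes. Of 781 genes of 300 to 600 bp 6.4% were higher and 1.54% lower, against 0.661% and 0.397% of 756 genes over 2500 bp. The median SD over the mutants was 0.178 in the short class and 0.109 in the long one. Within 20 kb of an end it was 0.211, against 0.121 farther away. Of 5393 pairs of adjacent genes, 331 held a higher gene and 7 held a pair of them, such as PDC6 and CTT1, GRE1 and FMP40, and TPO3 and TDA6. For lower genes 143 pairs held a member and 4 held a pair of them, among them PHO12 and IMD2 near the end of chromosome VIII. Of all genes, 3.14% were higher and 1.37% lower in all 4. Whether members lie together more than other genes was not tested. The counts of the 170 and 74 genes include 6 and 5 that overlap another gene, against 2.7% of all genes. They include 9 and 4 with a near-identical copy, against 2.63% of all genes. These counts are small, and whether they differ from the shares of all genes was not tested. By membership, 69 of the higher genes stood in at least 1 of the 56 lists and 101 in none, and 41 and 33 of the lower genes. The share of all genes that stand in a list was not computed, so these counts have no background to be read against. Of those in no list, ECM13 (a mean log2 ratio of 2.85 (SD 0.14)), STP4 (a mean log2 ratio of 3.13 (SD 0.29)) and the ceramidase gene YPC1 (a mean log2 ratio of 2.80 (SD 0.26)) had means near 3, and the lowest was YDR476C, with 133 FPKM in WT against 27.3 (ino80d), 38.2 (arp8d), 23.7 (arp5d) and 28.0 (ies6d); ECM13, STP4 and YPC1 were chosen after their values were seen.

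The 2-fold limit cut through a continuum. Just inside it on the higher side were MIC27, YML122C and SPO11, with the smallest of the 4 log2 ratios at 1.002, 1.005 and 1.007, and just outside BIO4, FLO1 and STE3, at 0.999, 0.996 and 0.995. On the lower side ECT1, GGC1 and CAR1 were just inside, at -1.01, -1.02 and -1.03, and COS9, NOP6 and PHO86 just outside, at -0.98, -0.98 and -0.97.

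Features other than ORFs of at least 300 bp added 54 higher and 18 lower ones, and their levels are less certain, since short features are measured poorly by FPKM. Of 42 kept small nucleolar RNAs, which carry no poly(A) tail when mature, 17 were 1.5-fold higher and 2 lower in all 4, with a median of 0.78. The neighbours snR128 and snR190 on chromosome X moved apart: snR128 read 1825 FPKM in WT against 11068 (ino80d), 7047 (arp8d), 14660.2 (arp5d) and 8698 (ies6d), and snR190 664 FPKM in WT against 78.1 (ino80d), 77.8 (arp8d), 49.8 (arp5d) and 99.1 (ies6d). Both forms of the spliceosomal U5 RNA, which overlap, did so as well, with means of -3.50 for the short form and 1.44 for the long form. The short stress genes DDR2, STF2 and EGO4 were among the highest, DDR2 with 99.1 FPKM in WT against 1004 (ino80d), 1168 (arp8d), 1039 (arp5d) and 1908 (ies6d). LSO1, a short gene induced when iron is low, read 196 FPKM in WT against 19.2 (ino80d), 58.9 (arp8d), 17.1 (arp5d) and 5.03 (ies6d).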

How the data were processed

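Poly(A) RNA of 5 strains was measured. The deposited values are FPKM per feature and strain, computed by the authors with TopHat2 and Cuffdiff on genome build sacCer3, per the submitters' processing notes; versions, annotation and library scaling are not given in the sources used here. Each FPKM column stands for 2 biological replicates, per the labels, and the files give no depth. From these values log2 ratios of FPKM + 1 to WT were computed and averaged over the 4 mutants. All 5 columns were used as deposited, without rescaling, rounding or imputation.

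Of 6567 features 5955 matched the R64 annotation (RefSeq, the assembly of sacCer3) by locus tag or symbol, and 612 did not. Symbols, positions and sequences come from it. Near-identical copies were found with blastn 2.17.0 (at least 90% identity over at least 50% of the gene's length, introns included). Motifs were searched on both strands of the 500 bases before each start codon. Tables were made with Python 3.11.15, pandas 2.3.3 and numpy 2.4.6, and the steps were tested on simulated data.

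No test was possible with 1 value per strain, so features are described by size. Named genes were the 15 highest and 15 lowest means, the 10 smallest SDs in each direction, the 10 largest SDs, up to 4 members of each of 56 lists, 3 on each side of the 2-fold limit, and the deleted, marker and INO1 genes. A few further genes of these lists, such as MSN2, PGM1, IME1, ADE16, PRS1 and LEU3, are named as contrasts and were chosen after their values were seen. Members and lists were chosen with earlier results of these data known. One ribosomal protein gene pair is not reported here. Alternatives were other pseudocounts, filters, scalings and thresholds, subsets of features, and leaving out each mutant.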

Additional observations from a re-analysis of the deposited data

Results flagged for a closer look

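In 4 features 1 mutant was at least 2-fold higher than WT and another at least 2-fold lower. The difference between them in log2 ratio was 5.04 for YGL149W, between ino80d and ies6d, 2.40 for YGR122C-A, between ies6d and ino80d, 2.39 for YMR247W-A, between ies6d and arp5d, and 2.74 for YOR032W-A, between arp5d and ies6d. YGL149W overlaps INO80, the gene deleted in ino80d. None of these differences was tested.

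The kept features leave out 7 that were listed at 0 in WT and reached at least 5 FPKM in every mutant. Their lowest level in a mutant was 754 FPKM for YBL107W-A, 51.2 for YBR200W-A, 11.3 for YCR102W-A, 579.7 for YDR371C-A, 2482 for YER053C-A, 5.45 for YGL188C and 3056 for snR69 (SNR69). The annotated ones are short: YER053C-A has 114 bp, YBR200W-A 165 bp and SNR69 101 bp. A value of 0 in a table without counts can be a failed estimate, and which it is was not tested. The reverse, 0 in all mutants and at least 5 FPKM in WT, occurred once.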

How the results depend on the processing

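No paired analysis was possible because each strain has 1 column for both replicates. The count of features lower in all mutants moved from 92 to 140 without arp8d. Leaving out each mutant in turn gave 230 to 290 features higher in all, 96 to 140 lower in all, 335 to 382 with a mean log2 ratio of at least 1, 177 to 208 with one of at most -1, and a median SD of 0.116 to 0.139. A 1.5-fold limit gave 487 and 292 features higher and lower in all 4, and 779 and 634 by the mean. Other pseudocounts, filters, scalings and subsets kept these counts within 1.5 times, at 152 to 244 higher and 74 to 96 lower. Leaving out features with near-identical copies, chosen after seeing the data, gave 215 and 88. The mean log2 ratio of INO80 reversed from -0.89 to 0.38 without ino80d, the strain that lacks it, and ranged from -1.34 to 0.38 over the left-out mutants. Of 836 list medians under an alternative 771 moved by less than the SD over the mutants and 65 by more, and of 2048 values of named genes 1966, with 81 moved by more and 1 reversed. The levels of low genes depend most on the pseudocount, depth is unknown, and a single WT value enters every ratio.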
